A study of Mus musculus with 16 samples.

Results

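The late transcriptional response to doxycycline (DOX) was read from 8 of the 16 libraries of the study, 4 from cells given DOX for 6 days and 4 from cells given the vehicle DMSO for 6 days. Members were taken by treatment and day as the sample labels give them, and all genes with at least 1 CPM (counts scaled to library size) in at least 4 of the 16 libraries were tested, which kept 13234 of 54393 genes. The cells of both groups were mIMCD3, a line of mouse renal epithelial cells derived from the inner medullary collecting duct of an SV40 transgenic mouse. They had been grown to confluence for 10 days on permeable filter supports in a renal epithelial medium that contained fetal bovine serum, epidermal growth factor and hydrocortisone. DOX was given at 2 µg/mL on the apical and the basolateral side and renewed every day, and RNA was taken through poly(A) selection and a strand-directional kit. The other 8 libraries, from cells treated for 3 days, entered the fit and served to date the response. Only 1 cell line was used, no tetracycline-controlled transgene is named in the labels, and nothing states that the 4 libraries of a group came from separate cultures, so the p-values measure only the spread between these libraries, which may be technical.

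Doxycycline is a tetracycline antibiotic, used widely to switch genes on or off in engineered cells. Tetracyclines bind the bacterial ribosome, and they also slow the related ribosome of mitochondria, which makes a small set of respiratory chain subunits from the mitochondrial genome. A fault in mitochondrial translation is known to start the integrated stress response, in which phosphorylation of the initiation factor eIF2alpha lowers protein synthesis while ATF4 and related factors raise genes for amino acid supply.

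The 8 libraries held between 17631806 and 23831563 estimated counts, and 3 counts, the floor for a detected gene, were worth 0.126 to 0.17 CPM. The correlation of log CPM ran from 0.981 to 0.99 between DMSO libraries, from 0.987 to 0.992 between DOX libraries and from 0.963 to 0.973 across the treatments. Epithelial and kidney markers were abundant, with Krt18 at 909 ± 39.3 TPM (transcript values scaled for length and depth) and Pax8 at 109 ± 7.90 TPM in the DMSO group (mean ± SD, n = 4). The defining transport markers of the collecting duct, namely Aqp2, Aqp4, Avpr2, Scnn1b, Scnn1g and Slc14a2, each had at most 18 counts in any of the 8 libraries. Of the 21 epithelial and collecting duct markers 13 were expressed well enough to be tested and 7 of these were lower with DOX, and their summed level ran from 3100 to 3438 TPM with DMSO and from 2025 to 2291 TPM with DOX. The 34 markers of other cell types summed to 38.6 to 63.9 TPM with DMSO and 21.6 to 36.3 TPM with DOX, and 12 of them were tested, with Cd68 and Csf1r called lower while the leukocyte marker Ptprc stayed at 3 to 16 counts. The summed level of 8 markers of the proximal tubule, thick limb and distal tubule differed between libraries of 1 group, from 9.93 to 70.2 CPM with DMSO and from 13.4 to 42.0 CPM with DOX, and none of these genes was called. Because the RNA was bulk, fewer cells of a type and less RNA per cell cannot be told apart.

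At 6 days DOX changed the level of 2856 genes, 21.6% of the genes tested, with 1326 genes higher (10.0%) and 1530 genes lower (11.6%). A gene was called when edgeR's quasi-likelihood test against a fold change of 1.2 (glmTreat) gave a Benjamini-Hochberg adjusted p under 0.05 over all 13234 genes. A value in brackets after a gene is its log2 fold change at 6 days ± the standard error with this adjusted p, and library values are listed in the order of the replicate numbers. The median log2 fold change was 0.61 over the genes called higher and -0.67 over those called lower, against -0.000641 over all genes tested. More than a 2-fold change was seen for 222 genes that rose and 406 that fell, and more than a 4-fold change for 29 and 80. Of the 1326 genes called higher, 1298 had all 4 DOX libraries above all 4 DMSO libraries. Of the 1530 called lower, 1471 had all 4 below. Over all 13234 genes, called or not, 2924 had all DOX libraries above and 2767 had all below. A lack of overlap was therefore also common among genes that were not called. The balance of directions depended on the scale, since limma on log2(TPM + 1) called 376 genes higher and 931 lower, a share of 28.8% higher among its calls, while the share was 46.4% in the count model and 50.6% when transcript length and GC content were corrected for. A further fit kept the 3 libraries of 6 days with the lowest tubule marker level, 1 with DMSO and 2 with DOX, and all libraries of 3 days. Its 1 DMSO library of 6 days, library 1, has no spread of its own, so the spread came from the other groups. Calls given below for these 3 libraries carry that limit.

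Read by function, the lists with the largest share of members higher were the interferon-stimulated genes, antigen presentation and the messages of the mitochondrial genome, and those with the largest share lower were mitosis and the keratins and microvilli. The 33 functional lists, written from general knowledge but with earlier results of these data known, held 1500 tested genes. Their shares are a description, and no test of a list was run. Of the 30 lists with a member called higher, the count fell by more than 1.5 times for 24 with limma on log2(TPM + 1), 8 with DESeq2 and 14 in the 3 libraries of lowest tubule marker level, and of the 25 with a member called lower, for 7, 6 and 17. In the 3 libraries of lowest tubule marker level the calls were 30 of 59 interferon-stimulated genes, 10 of 27 antigen presentation genes and 14 of 36 integrated stress response genes higher, and 45 of 71 mitosis genes lower.

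**Figure D1:**
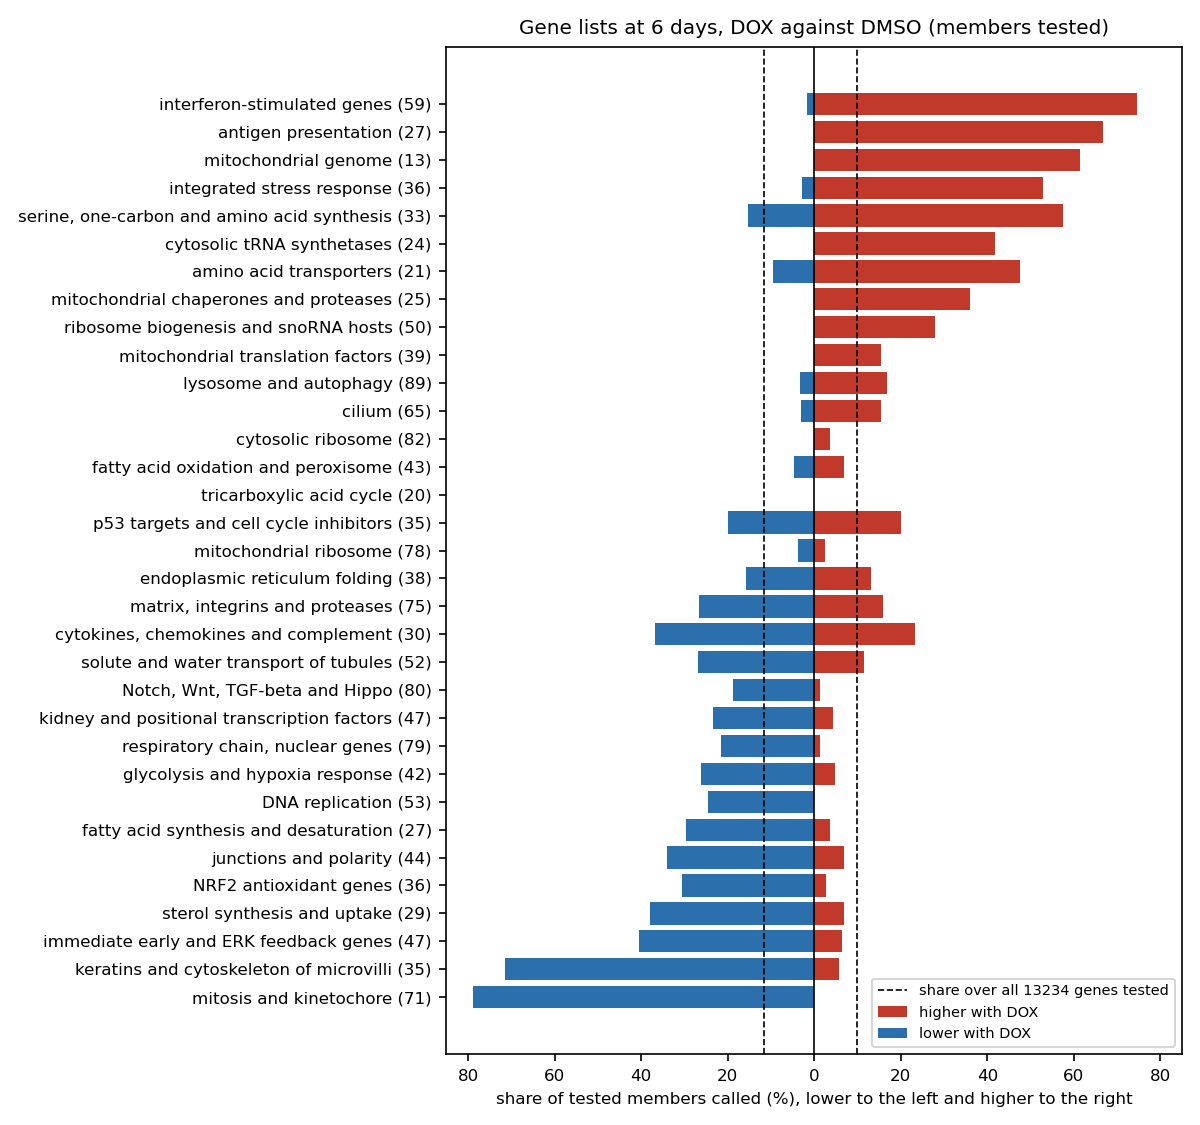
Share of the tested members of each functional list that were called higher (bars to the right) or lower (bars to the left) with DOX at 6 days, in percent, with the number of members tested in brackets and dashed lines at the shares over all 13234 genes, 10.0% higher and 11.6% lower. Interferon-stimulated genes (74.6% higher) and mitosis genes (78.9% lower) lie at the extremes, and no tricarboxylic acid cycle gene was called.

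The messages of the mitochondrial genome rose, but not as a unit. Of the 13 protein-coding genes on the mitochondrial chromosome, 8 were higher and none lower, and the median log2 fold change was 0.76. The rise ran through subunits of complex I, cytochrome b and the ATP synthase, while the 3 core subunits of cytochrome c oxidase were not called. mt-Nd2, a core subunit of complex I (chrM:3914-4951, GRCm38), had 463, 645, 640.4 and 718 CPM in the DMSO libraries and 1919.9, 2084, 2132 and 2247 CPM in the DOX libraries. The groups lay far apart, with a 3.4-fold rise (log2 fold change 1.76 ± 0.10, adjusted p = 4.4e-11). mt-Nd3 (1.62 ± 0.15, adjusted p = 2.23e-06) and mt-Nd4l (1.56 ± 0.10, adjusted p = 8.99e-10) rose nearly as much. mt-Nd4, mt-Nd1 and mt-Cytb followed with 1.29, 0.76 and 0.73, and the ATP synthase genes mt-Atp6 and mt-Atp8 with 0.87 and 1.18. mt-Co1, which encodes the largest subunit of cytochrome c oxidase, had 6186, 6702, 6394 and 7189 CPM in the DMSO libraries and 5759.9, 6488, 6592 and 7284 CPM in the DOX libraries, and these groups overlapped (log2 fold change -0.02 ± 0.09, adjusted p = 1.0). mt-Co2 (0.04 ± 0.27, adjusted p = 1.0), mt-Co3 (0.35 ± 0.21, adjusted p = 0.491), mt-Nd6 (0.05 ± 0.25, adjusted p = 1.0) and mt-Nd5 (0.38 ± 0.08, adjusted p = 0.0867) were not called, although mt-Nd5 passed without DMSO library 4 (adjusted p = 0.00951). The share of all counts that came from mitochondrial genes was 1.29% to 1.78% with DMSO and 2.20% to 2.51% with DOX, and the DMSO library with the lowest share was library 1.

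At 3 days 4 of the 13 genes were higher and mt-Co1 was lower. At 3 days, 5.30% of all genes were called higher and 7.22% lower. The DOX effect at 6 days was tested directly against that at 3 days (edgeR's glmQLFTest, no fold threshold), which called 7.44% of all genes for a difference upward and 9.58% for one downward, and 5 of the 13 mitochondrial genes upward. The other 8 did not pass this test, and mt-Nd6 was at -0.09 ± 0.35, adjusted p = 0.892. mt-Nd4l gained 0.79 ± 0.14, adjusted p = 0.00129, and mt-Co1 moved by 0.55 ± 0.12, adjusted p = 0.00572, from -0.57 at 3 days to -0.02 at 6 days (all log2). With transcript length and GC content corrected for, which calls 5.38% of all genes upward and 8.33% downward between times and 12% higher and 11.7% lower at 6 days, 8 of the 13 differed upward and 10 were higher at 6 days. These 10 include mt-Co3 (0.575, adjusted p = 0.0344) and mt-Nd5 (0.54, adjusted p = 0.00531), and mt-Co3 was also called with the tubule marker level as a covariate (0.571, adjusted p = 0.00329). With limma on log2(TPM + 1), 6 of the 13 were higher, and mt-Atp6 (adjusted p = 0.0519) and mt-Atp8 (0.088) were not. These 13 messages are short and have near-identical nuclear copies, so how the reads were shared between copies bears on their level.

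**Figure D2:**
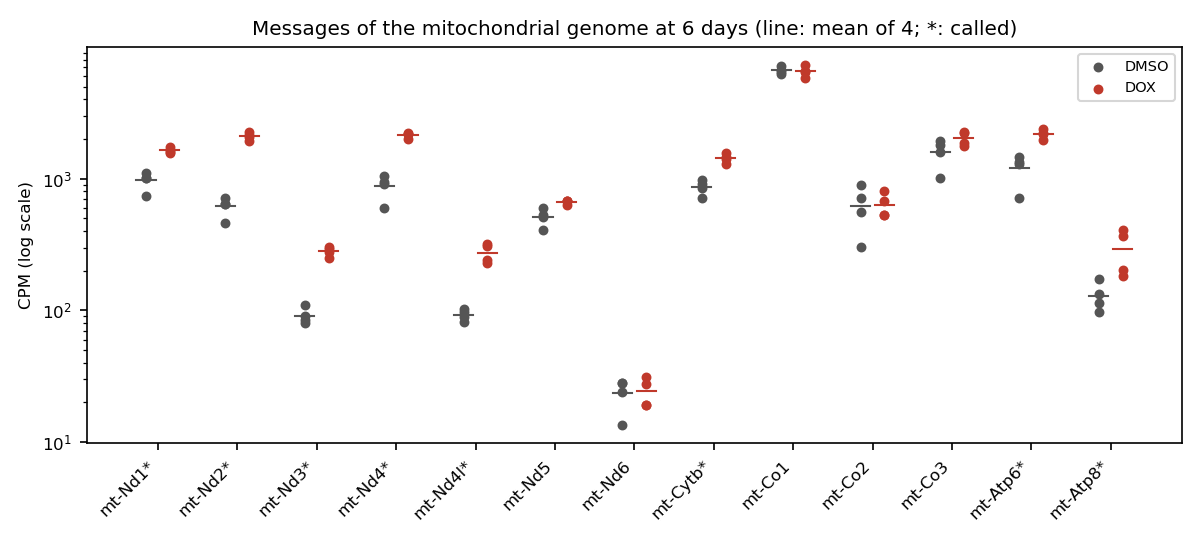
Level of the 13 protein-coding messages of the mitochondrial genome in CPM on a log scale, 1 point per library, grey for DMSO and red for DOX, with a line at the mean of 4 libraries and an asterisk for a called gene. The DOX points lie above the DMSO points for mt-Nd2, mt-Nd3 and mt-Nd4l, and the groups of mt-Co1, mt-Co2 and mt-Nd6 overlap.

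Nuclear genes for mitochondrial proteins took different courses by function. Of 25 tested chaperones and proteases of the organelle 9 were higher (36.0%) and none lower, with a median of 0.22. By 3 days 13 of them had already been higher and none lower. Of 39 factors of mitochondrial translation 6 were higher (15.4%) and none lower, with a median of 0.22. The share higher over all genes was 10.0%. In contrast, 17 of 79 nuclear-encoded subunits of the respiratory chain fell and 1 rose (median -0.18), 3 of 78 mitochondrial ribosomal proteins fell and 2 rose, and none of 20 tricarboxylic acid cycle genes was called. Hspa9, the mitochondrial Hsp70 that pulls proteins into the matrix, had 874, 823, 859.9 and 872 CPM in the DMSO libraries and 1640.3, 1566, 1575 and 1535 CPM in the DOX libraries. It rose 1.84-fold (log2 fold change 0.88 ± 0.06, adjusted p = 4.66e-09) with no overlap between the groups. Lonp1, the matrix protease, rose (0.71 ± 0.05, adjusted p = 8.94e-08), as did Immp2l, a protease of the inner membrane (1.45 ± 0.17, adjusted p = 2.46e-06), from a low level of 1.63 ± 0.255 to 4.47 ± 0.698 CPM (mean ± SD, n = 4). Lrpprc, which stabilizes mitochondrial messages, rose (0.48 ± 0.07, adjusted p = 0.00453). Oxa1l, the insertase for newly made inner membrane proteins, rose (0.48 ± 0.07, adjusted p = 0.00302), as did Guf1, a mitochondrial elongation factor (0.48 ± 0.06, adjusted p = 0.00148).

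Among the respiratory chain subunits the falls were in several complexes. Uqcrh, the hinge protein of complex III, had 127, 127, 115 and 115 CPM in the DMSO libraries and 88.1, 65.3, 71.8 and 70.8 CPM in the DOX libraries. All DOX libraries were below all DMSO libraries (log2 fold change -0.71 ± 0.09, adjusted p = 6.85e-05). Atp5g3, which encodes the c subunit of the ATP synthase rotor, fell (-0.64 ± 0.10, adjusted p = 0.00073). The muscle-type isoforms of cytochrome c oxidase moved in opposite directions at low levels, with Cox7a1 at 1.92 ± 0.588 to 0.667 ± 0.197 CPM and Cox6a2 at 2.21 ± 0.259 to 8.17 ± 0.718 CPM (-1.5 ± 0.32, adjusted p = 0.00224 for Cox7a1 and 1.89 ± 0.16, adjusted p = 3.29e-08 for Cox6a2). The ribosomal proteins Mrps21 (-0.48 ± 0.09, adjusted p = 0.0162), Mrpl18 (-0.45 ± 0.08, adjusted p = 0.0222) and Mrpl49 (-0.40 ± 0.07, adjusted p = 0.0405) fell. Mrps31 rose (0.45 ± 0.07, adjusted p = 0.0106). The cycle enzymes of highest level were Mdh2 and Idh3b, the malate dehydrogenase and a subunit of isocitrate dehydrogenase, with log2 fold changes of 0.09 ± 0.06, adjusted p = 1.0 and -0.03 ± 0.07, adjusted p = 1.0, neither called. The calls of the 4 ribosomal proteins lay near the limit. Adjusted p reached 0.0603 for Mrps21 without DMSO library 1. Mrpl18 reached 0.0535 without DMSO library 1 and 0.0773 without DOX library 4. Mrpl49 reached 0.134, 0.0586, 0.0624, 0.0794 and 0.0834 without DMSO libraries 2 and 3 and DOX libraries 1, 3 and 4 in turn, and Mrps31 reached 0.0505 without DOX library 1. With DESeq2 the calls were 10 respiratory chain genes lower and no mitochondrial ribosomal protein in either direction, and limma on TPM called no translation factor.

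Between 3 and 6 days the respiratory chain and the mitochondrial ribosome moved downward, whereas 2 of 25 chaperones and proteases, 1 of 39 translation factors and 2 of 20 cycle genes differed downward, shares near or under the 9.58% of all genes. None of the 79 respiratory chain genes was lower at 3 days, and the effect at 6 days lay below that at 3 days for 48 of them, or for 24 with length and GC content corrected for. The mitochondrial ribosomal proteins, of which 12 were higher at 3 days, differed downward for 36 of 78, or 22 after that correction. Both values are given because the 3-day effect moved with transcript length, from a median of 0.21 in the shortest of 10 length classes of genes to -0.18 in the longest, whereas at 6 days these medians were -0.08 and -0.07.

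Genes of the integrated stress response and of amino acid supply rose. Of 36 tested members of the response, 19 were higher and 1 lower (median 0.45). Of 33 genes for the synthesis of serine, one-carbon units and other amino acids 19 rose and 5 fell, of 21 amino acid transporters 10 rose and 2 fell, and of 24 cytosolic tRNA synthetases 10 rose and none fell. Limma on log2(TPM + 1) called fewer of each higher, 12, 9, 6 and 5. Much of this rise was present by 3 days, when 17, 10, 6 and 11 members of these lists were higher. At that time 1, 3, 1 and 0 were lower. The effect at 6 days lay above that at 3 days for 7, 4, 6 and 2 members and below it for 1, 3, 0 and 2. Ppp1r15a, the phosphatase subunit that reverses eIF2alpha phosphorylation, had 123, 118, 109.8 and 105 CPM in the DMSO libraries and 299, 308, 314 and 306 CPM in the DOX libraries. The groups did not overlap, and the rise was 2.69-fold (log2 fold change 1.43 ± 0.05, adjusted p = 1.68e-13). Slc7a11, the cystine carrier of the plasma membrane, had 9.96, 12.3, 14.3 and 14.8 CPM in the DMSO libraries and 36.2, 41.6, 41.6 and 34.7 CPM in the DOX libraries. It rose 3.0-fold (1.59 ± 0.10, adjusted p = 4.26e-10), with every DOX library above every DMSO library. Cth, which makes cysteine from cystathionine, rose (1.41 ± 0.07, adjusted p = 2.01e-11). Trib3, a pseudokinase induced by ATF4, rose (1.27 ± 0.08, adjusted p = 1.29e-09), as did Ddit3, the stress factor CHOP (0.60 ± 0.08, adjusted p = 0.000288). Atf4 itself, whose protein is raised by translation in this response, had 731, 683, 692 and 666 CPM in the DMSO libraries and 909.9, 856, 892 and 878 CPM in the DOX libraries. The lowest DOX library of Atf4 lay above the highest DMSO library, but the change of 0.35 ± 0.06, adjusted p = 0.106 was not called against the fold threshold, whereas at 3 days it was (0.60 ± 0.06, adjusted p = 8.56e-05). Eif2ak3, the kinase PERK that senses protein load in the endoplasmic reticulum, fell (-0.79 ± 0.10, adjusted p = 2.62e-05).

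Amino acid genes rose at several steps of supply. Aldh18a1, which starts proline synthesis, rose (0.95 ± 0.06, adjusted p = 3.69e-09). Pycr1, which completes proline synthesis, rose (0.87 ± 0.06, adjusted p = 1.47e-08), as did Gpt2, the mitochondrial alanine aminotransferase (0.92 ± 0.06, adjusted p = 4.35e-09). Glul, glutamine synthetase, fell (-1.1 ± 0.10, adjusted p = 2.24e-07). The transporter Slc1a5, which takes up glutamine and other neutral amino acids, had 26, 20.8, 23.4 and 24.6 CPM in the DMSO libraries and 56.2, 62.5, 70.2 and 59.7 CPM in the DOX libraries. It rose 2.62-fold without overlap (1.39 ± 0.08, adjusted p = 2.62e-10), and its effect was larger than at 3 days (difference 0.66 ± 0.12, adjusted p = 0.00143). Slc6a9, a glycine transporter, rose (1.39 ± 0.09, adjusted p = 3.09e-10). Slc43a2, a carrier of large neutral amino acids, fell (-0.92 ± 0.21, adjusted p = 0.0058), with overlapping groups. Eprs, which charges tRNAs with glutamate and proline, had 370.3, 387, 417 and 413 CPM in the DMSO libraries and 804, 791, 795 and 757 CPM in the DOX libraries, a rise of 1.98-fold (0.99 ± 0.06, adjusted p = 4.65e-10). Wars, for tryptophan, rose (0.87 ± 0.06, adjusted p = 3.19e-09), as did Yars, for tyrosine (0.66 ± 0.05, adjusted p = 7.51e-07), and Tarsl2, another threonyl synthetase (0.70 ± 0.10, adjusted p = 0.000167).

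Promoters of 4 of these genes are shown because they hold the element that ATF4 binds with its partners in genes of amino acid supply. Each window runs from 250 bases before to 50 bases after a transcription start in RefSeq (GRCm38.p6) and is written 5′ to 3′ on the strand of the gene, with matches of TGATGNAA on either strand in capitals. The windows lie at chr3:50443564-50443863, minus strand (Slc7a11), chr2:152344011-152344310, minus strand (Trib3), chr11:120643699-120643998, minus strand (Pycr1) and chr4:129189653-129189952, plus strand (Yars).
Slc7a11: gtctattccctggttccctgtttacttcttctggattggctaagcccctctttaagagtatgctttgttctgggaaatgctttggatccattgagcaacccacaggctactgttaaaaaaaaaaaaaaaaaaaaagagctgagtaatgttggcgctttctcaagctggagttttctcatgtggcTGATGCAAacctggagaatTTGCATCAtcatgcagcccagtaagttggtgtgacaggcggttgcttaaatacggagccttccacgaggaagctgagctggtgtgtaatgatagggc
Trib3: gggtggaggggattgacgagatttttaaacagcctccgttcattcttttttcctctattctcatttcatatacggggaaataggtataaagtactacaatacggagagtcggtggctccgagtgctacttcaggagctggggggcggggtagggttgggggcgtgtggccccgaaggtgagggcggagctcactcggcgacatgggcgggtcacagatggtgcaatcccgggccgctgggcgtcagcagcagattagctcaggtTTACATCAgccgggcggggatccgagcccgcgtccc
Pycr1: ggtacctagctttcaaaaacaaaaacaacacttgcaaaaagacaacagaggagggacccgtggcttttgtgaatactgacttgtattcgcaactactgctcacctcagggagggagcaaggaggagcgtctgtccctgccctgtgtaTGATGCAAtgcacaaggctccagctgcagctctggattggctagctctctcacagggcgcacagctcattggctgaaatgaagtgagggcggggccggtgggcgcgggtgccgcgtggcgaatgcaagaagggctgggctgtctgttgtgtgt
Yars: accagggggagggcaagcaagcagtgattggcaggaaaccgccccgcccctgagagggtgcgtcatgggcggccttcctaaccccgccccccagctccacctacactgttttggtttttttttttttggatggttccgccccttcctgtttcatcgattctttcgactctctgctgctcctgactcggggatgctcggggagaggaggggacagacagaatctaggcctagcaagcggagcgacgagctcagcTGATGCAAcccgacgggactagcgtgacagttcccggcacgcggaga
The Slc7a11 window holds the element 2 times, on opposite strands. Of the 20 promoter windows found for genes called higher in the stress response list, 4 (20%) hold the element, as do 3 of 17 (17.6%) in the amino acid synthesis list, 2 of 10 (20%) in the transporter list and 2 of 6 (33.3%) in the synthetase list. The share over all 32851 mouse promoter windows is 3.97%, and over the 12555 windows of tested genes 2.17%. The lists share genes, such as Slc7a11 and Cth, so these shares are not independent of each other. The share among list members that were not called was not counted, here or for the elements given below. These shares therefore describe the lists and do not tie an element to the response to DOX.

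Genes of cytosolic ribosome production rose in part, while the ribosomal proteins were mostly not called. Of 50 tested genes for ribosome biogenesis and small nucleolar RNA hosts, 14 were higher and none lower (median 0.33), and of 82 cytosolic ribosomal proteins 3 were higher and none lower (median 0.23). With length and GC content corrected for, the counts higher were 22 and 24. They were 10 and 2 with DESeq2, 4 and 3 with limma on log2(TPM + 1), and 9 and 0 in the 3 libraries of lowest tubule marker level. By 3 days 18 of the biogenesis and host genes and 7 of the ribosomal proteins had already been higher, and none was lower. The share of all counts from ribosomal protein genes at 6 days was 8.81% to 9.79% with DMSO and 10.5% to 12% with DOX. Mybbp1a, a nucleolar protein of ribosomal RNA transcription, had 340.2, 317, 338 and 323 CPM in the DMSO libraries and 560.0, 579, 577 and 565 CPM in the DOX libraries. It rose 1.73-fold (0.79 ± 0.06, adjusted p = 1.76e-08) with separate groups. Snhg5, a noncoding host of small nucleolar RNAs, rose (0.81 ± 0.09, adjusted p = 1.27e-05), as did Rrp9, a protein of the U3 particle that processes ribosomal RNA (0.77 ± 0.07, adjusted p = 1.62e-06). The ribosomal proteins that rose included Rpl12 (0.56 ± 0.09, adjusted p = 0.00201) and Rpl4 (0.46 ± 0.08, adjusted p = 0.0204). The call of Rpl4 was lost without DMSO library 4 (adjusted p = 0.0515) and without DOX library 1 (0.053).

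Chaperones of the endoplasmic reticulum had no common direction at 6 days. Among 38 tested members, 5 were higher and 6 lower (median -0.10), shares near those over all genes. The effect at 6 days lay above that at 3 days for 13 of the 38 and below it for 2. Over all genes these shares were 7.44% and 9.58%. With length and GC content corrected for, 14 differed upward and 1 downward. Of the sensors of unfolded protein, Atf6 (0.91 ± 0.06, adjusted p = 1.37e-09) and Ern1, the kinase and RNase IRE1 (0.76 ± 0.08, adjusted p = 2.53e-06), rose, while the sensor Eif2ak3 fell, as given above. Atf6 had 87.9, 85.4, 93.1 and 89.5 CPM in the DMSO libraries and 152, 169, 177 and 169 CPM in the DOX libraries, with no overlap. Calr, the lectin chaperone calreticulin, fell (-0.54 ± 0.05, adjusted p = 4.16e-05), from 633 ± 24 to 434 ± 12.8 CPM. Its fall had been larger at 3 days, at -0.82 (log2 difference between times 0.27 ± 0.08, adjusted p = 0.0187 by glmQLFTest). Derl3, of the degradation machinery, fell (-1.46 ± 0.21, adjusted p = 4.42e-05) at a low level of 3.17 ± 0.278 to 1.14 ± 0.251 CPM. Sdf2l1, a luminal chaperone partner, fell (-0.49 ± 0.09, adjusted p = 0.0154), and this call was lost without DMSO library 1 (adjusted p = 0.0697) or DOX library 2 (0.0561).

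Interferon-stimulated genes were the list with the largest share of higher members. Of 59 tested, 44 (74.6%) rose and 1 fell, with a median of 0.56, and of 27 antigen presentation genes 18 (66.7%) rose and none fell, with a median of 0.55. Mx1, an antiviral GTPase, had 1.06, 0.874, 0.867 and 0.89 CPM in the DMSO libraries and 4.47, 3.29, 4.38 and 3.58 CPM in the DOX libraries. It rose 4.24-fold (2.08 ± 0.29, adjusted p = 1.69e-05), and no DOX library came near the DMSO range. Iigp1, a GTPase directed at intracellular pathogens, rose (1.45 ± 0.16, adjusted p = 2.32e-06). Zbp1, a sensor of Z-form nucleic acids, had 5.32, 5.38, 4.01 and 4.56 CPM in the DMSO libraries and 13.3, 11, 12.6 and 11 CPM in the DOX libraries, which did not overlap (1.31 ± 0.13, adjusted p = 3.46e-07). Ifi27l2a was the 1 member that fell (-1.32 ± 0.17, adjusted p = 1.69e-05), from 6.55 ± 1.07 to 2.6 ± 0.543 CPM.

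In the class I pathway, Nlrc5, the transactivator of class I genes, had 5.26, 4.37, 4.39 and 6.44 CPM in the DMSO libraries and 11.4, 12.8, 17.2 and 15.8 CPM in the DOX libraries. All DOX values were above the DMSO values (1.48 ± 0.14, adjusted p = 9.1e-08). Tap1, the peptide transporter of the endoplasmic reticulum, rose 2.46-fold (1.3 ± 0.07, adjusted p = 4.92e-11). H2-Q7, a class I heavy chain, had 48.1, 31.4, 33.4 and 37.5 CPM in the DMSO libraries and 90.9, 91, 93.8 and 95.3 CPM in the DOX libraries, a rise of 2.47-fold without overlap (1.31 ± 0.10, adjusted p = 6.49e-09). Erap1, which trims peptides for class I, rose (0.55 ± 0.06, adjusted p = 0.000157), as did B2m, the light chain (0.43 ± 0.06, adjusted p = 0.00849). Cd74, the invariant chain of class II, rose (1.53 ± 0.14, adjusted p = 1.26e-07) from 3.01 ± 0.653 to 8.76 ± 1.02 CPM. H2-Q7 belongs to a family of near-identical genes, so its own level is uncertain.

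Much of this response was late. At 3 days 27 of the 59 interferon genes and 5 of the 27 antigen presentation genes were higher, and the effect was larger at 6 days for 24 and 10 genes. Mx1 gained 1.75 ± 0.40, adjusted p = 0.00689 (log2), Nlrc5 1.25 ± 0.19, adjusted p = 0.000496, Iigp1 1.2 ± 0.23, adjusted p = 0.00238 and Zbp1 1.06 ± 0.18, adjusted p = 0.000978, and these 4 were not called at 3 days. With limma on log2(TPM + 1), 29 interferon genes and 9 antigen presentation genes were higher at 6 days.

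Promoters of 3 of these genes are shown with the interferon element GAAANNGAA in capitals, again on either strand and with the same window. They lie at chr3:142559794-142560093, plus strand (Gbp3, a guanylate-binding protein, log2 fold change 1.23 ± 0.08, adjusted p = 7.48e-10), chr12:26456403-26456702, minus strand (Rsad2, viperin, 1.01 ± 0.10, adjusted p = 1.01e-06) and chr13:74639603-74639902, plus strand (Erap1).
Gbp3: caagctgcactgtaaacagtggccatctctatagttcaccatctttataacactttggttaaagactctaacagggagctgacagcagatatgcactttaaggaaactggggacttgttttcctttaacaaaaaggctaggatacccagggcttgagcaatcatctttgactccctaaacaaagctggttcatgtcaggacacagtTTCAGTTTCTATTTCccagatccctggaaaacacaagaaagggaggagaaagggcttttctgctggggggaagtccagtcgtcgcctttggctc
Rsad2: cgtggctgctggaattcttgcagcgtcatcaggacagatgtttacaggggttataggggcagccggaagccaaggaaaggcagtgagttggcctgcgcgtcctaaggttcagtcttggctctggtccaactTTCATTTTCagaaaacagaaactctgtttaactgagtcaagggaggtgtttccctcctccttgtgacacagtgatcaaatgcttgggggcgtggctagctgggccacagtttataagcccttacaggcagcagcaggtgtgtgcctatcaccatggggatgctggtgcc
Erap1: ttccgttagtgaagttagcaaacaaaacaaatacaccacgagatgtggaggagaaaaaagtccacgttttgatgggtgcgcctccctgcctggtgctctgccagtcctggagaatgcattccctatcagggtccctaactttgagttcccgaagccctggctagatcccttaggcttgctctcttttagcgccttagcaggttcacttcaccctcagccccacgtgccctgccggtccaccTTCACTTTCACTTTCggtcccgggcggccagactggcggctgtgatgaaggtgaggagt
Among the genes called higher, 22 of 38 promoter windows of interferon-stimulated genes (57.9%) and 3 of 15 of antigen presentation genes (20%) hold the element, against 8.56% of all windows and 6.89% of those of tested genes. Windows of list members not called were again not counted.

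Genes of cell division fell. Of 71 tested genes of mitosis and the kinetochore 56 were lower and none higher, with a median of -0.62, and of 53 DNA replication genes 13 were lower and none higher, with a median of -0.24. Mki67, the proliferation marker Ki-67, had 331, 330.4, 321 and 378 CPM in the DMSO libraries and 152, 135, 144 and 136 CPM in the DOX libraries. The groups were far apart (-1.26 ± 0.08, adjusted p = 1.27e-09). Kif23, a kinesin of the central spindle, had 91.3, 94.6, 92.2 and 99 CPM in the DMSO libraries and 45.4, 47.6, 48.7 and 47.5 CPM in the DOX libraries, without overlap (-1.0 ± 0.05, adjusted p = 8.39e-11). Ncapg2, a condensin II subunit, fell (-0.87 ± 0.07, adjusted p = 1.83e-07), as did Ncapd2, of condensin I (-0.79 ± 0.07, adjusted p = 3.91e-07). Foxm1, the transcription factor of many mitotic genes, was at -0.35 ± 0.06 and not called (adjusted p = 0.113). All its DOX libraries lay below all its DMSO libraries, however. With length and GC content corrected for, Foxm1 was called lower (-0.38, adjusted p = 0.0151). Rrm2, the ribonucleotide reductase subunit that limits the supply of deoxynucleotides, had 129.7, 141, 140.3 and 156 CPM in the DMSO libraries and 49.1, 49.4, 45.5 and 42.2 CPM in the DOX libraries. This fall (-1.61 ± 0.08, adjusted p = 5.1e-12) was the largest of the replication list. Cdc6, which loads the replicative helicase, fell (-1.03 ± 0.07, adjusted p = 2.73e-09), as did Clspn, the checkpoint adaptor claspin (-0.77 ± 0.07, adjusted p = 3.72e-07).

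The fall grew with time. At 3 days 16 mitosis genes and 4 replication genes were lower, and the effect at 6 days lay further down for 51 of 71 and 26 of 53. On the log2 scale the further change of Rrm2 was -0.73 ± 0.10, adjusted p = 0.000305 and that of Mki67 -0.44 ± 0.12, adjusted p = 0.014. Targets of p53 and inhibitors of the cell cycle had no common direction, with 7 of 35 higher and 7 lower. Fas, the death receptor, rose (1.41 ± 0.15, adjusted p = 8.06e-07) from 1.92 ± 0.277 to 5.08 ± 0.343 CPM, and 0.02 had been its log2 fold change at 3 days. Cdkn1c, the inhibitor p57, rose (0.75 ± 0.09, adjusted p = 5.79e-05), as did Sesn2, a stress protein that is also a target of ATF4 (0.73 ± 0.09, adjusted p = 6.89e-05). Cdkn2d, the inhibitor p19, fell (-0.93 ± 0.10, adjusted p = 3e-06). Cdkn1a, the inhibitor p21, fell (-0.40 ± 0.06, adjusted p = 0.0152), a call lost without DMSO library 1 (adjusted p = 0.0597). Tnfrsf10b, the receptor for TRAIL, rose (0.37 ± 0.05, adjusted p = 0.0322), and its adjusted p was 0.0728, 0.0522, 0.0608 and 0.0598 without DMSO library 4 and DOX libraries 2, 3 and 4 in turn.

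Promoters of 3 mitosis genes are shown with the cell cycle homology region TTTGAA, which recruits the complexes that hold such genes down in resting cells, in capitals on either strand. The windows lie at chr7:135716330-135716629, minus strand (Mki67), chr9:61946750-61947049, minus strand (Kif23) and chr12:116405186-116405485, plus strand (Ncapg2).
Mki67: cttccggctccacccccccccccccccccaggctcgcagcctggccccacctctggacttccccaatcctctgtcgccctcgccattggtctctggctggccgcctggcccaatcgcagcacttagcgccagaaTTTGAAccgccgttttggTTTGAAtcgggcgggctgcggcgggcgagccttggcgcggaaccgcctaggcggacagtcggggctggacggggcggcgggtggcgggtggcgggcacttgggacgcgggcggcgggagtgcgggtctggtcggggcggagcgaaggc
Kif23: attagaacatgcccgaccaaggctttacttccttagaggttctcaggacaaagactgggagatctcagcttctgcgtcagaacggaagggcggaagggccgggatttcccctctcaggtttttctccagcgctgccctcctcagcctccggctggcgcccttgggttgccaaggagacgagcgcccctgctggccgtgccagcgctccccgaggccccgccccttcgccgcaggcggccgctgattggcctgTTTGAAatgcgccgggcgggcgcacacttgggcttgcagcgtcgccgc
Ncapg2: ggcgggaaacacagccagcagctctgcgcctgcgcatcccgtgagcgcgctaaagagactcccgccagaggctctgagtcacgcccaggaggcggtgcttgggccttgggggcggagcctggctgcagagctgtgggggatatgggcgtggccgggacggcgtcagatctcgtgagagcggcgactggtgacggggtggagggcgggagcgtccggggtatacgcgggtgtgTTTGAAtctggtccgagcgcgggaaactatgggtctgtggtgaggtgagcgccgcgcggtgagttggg
Of the 50 promoter windows of mitosis genes called lower, 35 (70%) hold this element, against 17.9% of all windows and 11.9% of those of tested genes. The elements of E2F, TTTGGCGC and TTTCGCGC, occur in 3 of these 50 windows (6%) and in 2 of 13 windows of replication genes called lower (15.4%), against 0.813% of all windows and 1.51% of those of tested genes.

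**Figure D3:**
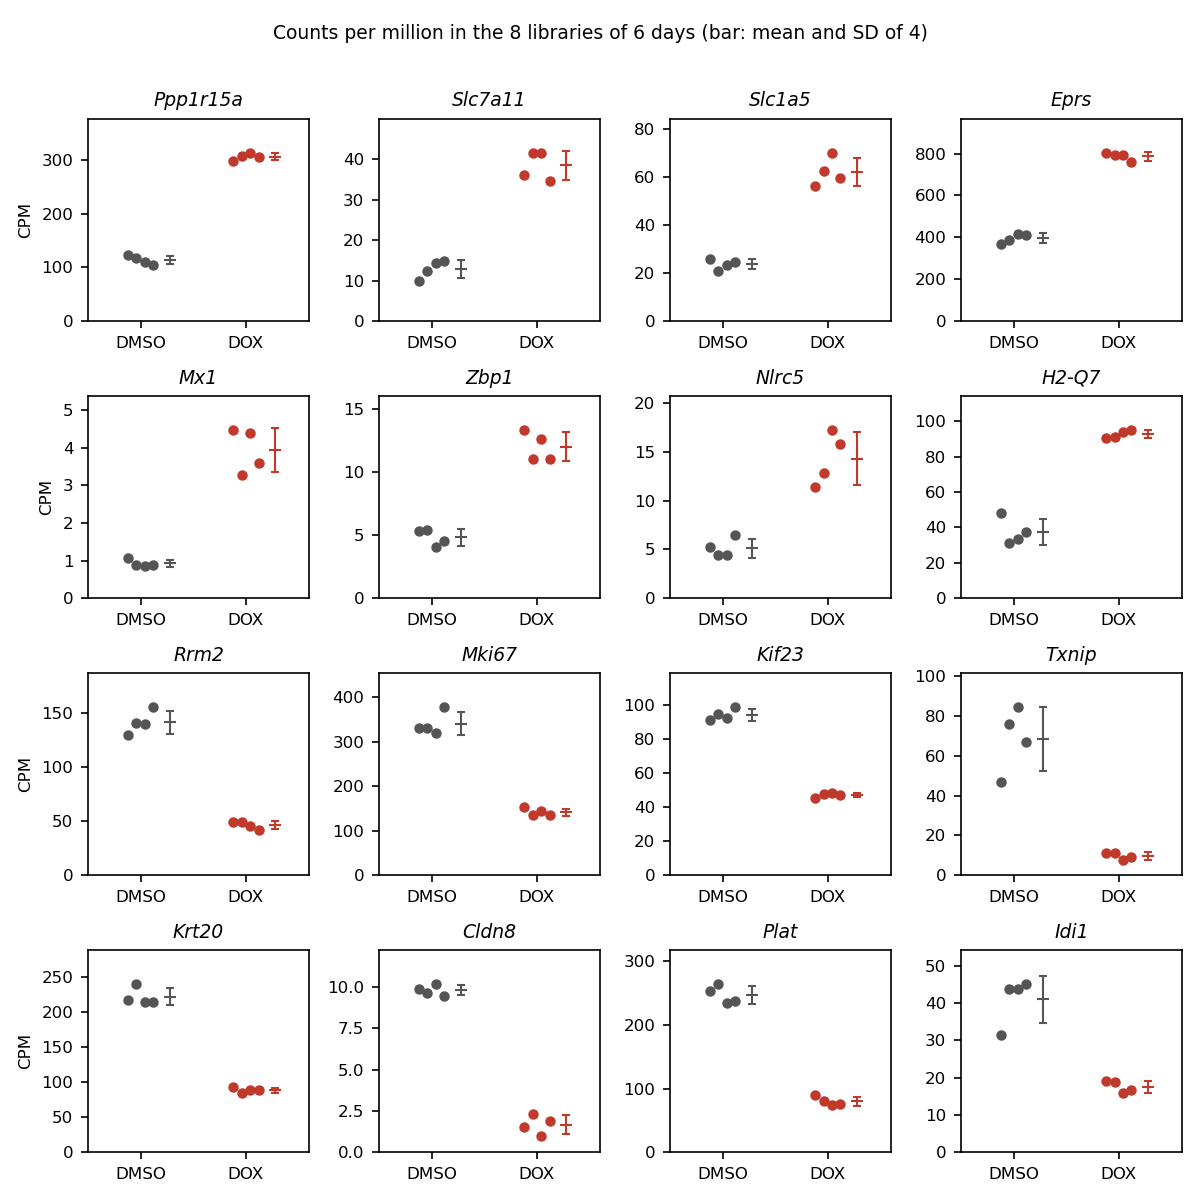
Level in CPM (linear axes from 0) of 16 genes in the 4 DMSO (grey) and 4 DOX (red) libraries of 6 days, with 1 point per library and a bar for the mean and SD. The groups are separate in all 16 panels, with DOX above DMSO for the 4 stress and amino acid genes of the top row and the 4 interferon and antigen presentation genes of the next row, and below it for the 8 genes of the lower rows.

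Immediate early genes and signalling antagonists were lower. In the list of immediate early and ERK feedback genes 19 of 47 fell and 3 rose (median -0.38). By 3 days 19 had already been lower and 4 higher. Dusp10, a phosphatase of the stress kinases, had 35.5, 45.4, 40.6 and 46 CPM in the DMSO libraries and 15.2, 15.1, 15.5 and 15 CPM in the DOX libraries. It fell with no overlap (-1.46 ± 0.08, adjusted p = 6.21e-11). Dusp1, a related phosphatase, fell (-1.43 ± 0.08, adjusted p = 1.6e-10), as did Jun, a component of AP-1 (-1.26 ± 0.09, adjusted p = 7.91e-09). Etv5, a transcription factor raised by FGF signalling, went the other way (1.13 ± 0.11, adjusted p = 4e-07). Of 80 genes of the Notch, Wnt, TGF-beta and Hippo pathways 15 fell and 1 rose, and the falls included the inhibitors of DNA binding that BMP signals raise. Id1 fell (-1.45 ± 0.08, adjusted p = 9.83e-11), as did Id2 (-1.59 ± 0.10, adjusted p = 3.01e-10), Id3 (-1.56 ± 0.09, adjusted p = 1.06e-10) and Id4 (-2.58 ± 0.24, adjusted p = 5.06e-08). The values of Id2 were 322, 390.3, 379 and 383 CPM in the DMSO libraries and 137, 128, 109 and 115 CPM in the DOX libraries, without overlap. Bmp2, the ligand, had 43.1, 25.2, 27.2 and 24.3 CPM in the DMSO libraries and 7.39, 10.0, 5.56 and 6.58 CPM in the DOX libraries, with DMSO library 1 far above the other 3 and all DOX libraries below them (-2.01 ± 0.38, adjusted p = 0.00202). The 4 Id genes each lay lower at 6 than at 3 days, with log2 differences of -1.05 ± 0.12, adjusted p = 3.61e-05 for Id1, -1.07 ± 0.13, adjusted p = 0.00013 for Id2, -1.06 ± 0.13, adjusted p = 7.14e-05 for Id3 and -1.43 ± 0.32, adjusted p = 0.00573 for Id4. Notch4 fell (-1.59 ± 0.30, adjusted p = 0.000639) at a low level, but limma on log2(TPM + 1) gave -0.22 (adjusted p = 1.0), with 0.743 ± 0.843 TPM with DMSO and 0.461 ± 0.593 TPM with DOX, and the call was also lost in the 3 libraries of lowest tubule marker level (adjusted p = 0.0574). Bmp6 rose (0.81 ± 0.12, adjusted p = 0.000167).

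Genes of lipid synthesis fell in part. Of 29 sterol genes 11 were lower and 2 higher (median -0.29), and of 27 genes for fatty acid synthesis and desaturation 8 were lower and 1 higher. The lower sterol and fatty acid synthesis members were 8 and 4 with DESeq2, 8 and 3 with limma on log2(TPM + 1), and 7 and 1 in the 3 libraries of lowest tubule marker level. By 3 days 11 sterol and 7 fatty acid synthesis genes had already been lower, and 0 and 1 higher. Idi1, an enzyme that makes isoprenoid units, had 31.4, 43.7, 43.6 and 45 CPM in the DMSO libraries and 19, 18.7, 15.8 and 16.7 CPM in the DOX libraries. DMSO library 1 was the lowest of its group but above all DOX libraries (-1.22 ± 0.10, adjusted p = 4.49e-08). Hmgcs1, which makes the precursor of mevalonate, fell (-0.96 ± 0.08, adjusted p = 2.1e-07). Srebf2, the transcription factor of the pathway, was not called (-0.24 ± 0.07, adjusted p = 0.726). Abcg1, a sterol exporter, fell (-0.91 ± 0.26, adjusted p = 0.0287) at a low level, with adjusted p of 0.0651 without DMSO library 1 and 0.102 without DOX library 3. Scd2, a fatty acid desaturase, had 505, 613, 641 and 615 CPM in the DMSO libraries and 286, 311, 299 and 346 CPM in the DOX libraries. It fell (-0.94 ± 0.08, adjusted p = 2.47e-07), as did Fasn, the fatty acid synthase (-0.67 ± 0.08, adjusted p = 4.9e-05), and Mlxipl, the carbohydrate-responsive factor ChREBP (-1.16 ± 0.25, adjusted p = 0.00304). Mlxipl was at a low level, 1.3 ± 0.171 CPM with DMSO and 0.573 ± 0.141 CPM with DOX. It had as few as 8 counts in a library, and limma on log2(TPM + 1) gave a change of only -0.33. Fads3, a desaturase relative, rose (0.49 ± 0.06, adjusted p = 0.000459).

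Among 43 genes of fatty acid oxidation and the peroxisome 3 rose (6.98%) and 2 fell (4.65%), below the shares of 10.0% and 11.6% over all genes. Acox2, the peroxisomal oxidase of branched chains and bile acid precursors, had 1.18, 1.2, 0.921 and 0.838 CPM in the DMSO libraries and 11.5, 10.6, 11.2 and 9.67 CPM in the DOX libraries. It rose 10.3-fold (3.36 ± 0.15, adjusted p = 8.72e-13), more than at 3 days (difference 1.37 ± 0.22, adjusted p = 0.000729). Pex16 (0.78 ± 0.09, adjusted p = 1.69e-05) and Pex6 (0.57 ± 0.09, adjusted p = 0.00131), both needed to form peroxisomes, rose. Ppargc1a, a coactivator of mitochondrial genes, fell (-0.55 ± 0.13, adjusted p = 0.0249), and adjusted p was 0.0935, 0.0887 and 0.0895 without DMSO library 4, DOX library 2 and DOX library 4.

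Genes of glycolysis and the hypoxia response and of the NRF2 antioxidant program were lower. In the first list 11 of 42 fell and 2 rose (median -0.25). Txnip, which binds thioredoxin and restrains glucose uptake, had 46.8, 75.7, 84.5 and 66.8 CPM in the DMSO libraries and 11.1, 11.3, 7.44 and 8.93 CPM in the DOX libraries. It showed the largest fall of the list (-2.82 ± 0.20, adjusted p = 1.32e-07). Egln3, an oxygen-sensing hydroxylase, fell (-1.31 ± 0.08, adjusted p = 3.64e-10), as did Ankrd37, a target of hypoxia-inducible factors (-0.94 ± 0.09, adjusted p = 5.49e-07), and the glycolytic enzyme Pgk1 (-0.46 ± 0.08, adjusted p = 0.0185), a call lost without DOX library 3 (adjusted p = 0.0581). Car12, a carbonic anhydrase, rose (0.84 ± 0.08, adjusted p = 1.34e-06). Ankrd37 and Pgk1 had not been called at 3 days, and the effects at 6 days less those at 3 days were -0.79 ± 0.12, adjusted p = 0.000619 for the former and -0.52 ± 0.12, adjusted p = 0.0065 for the latter (log2).

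Of 36 NRF2 genes 11 fell, and the 1 that rose was Slc7a11, which also belongs to the stress response list. Gsta1, a glutathione transferase, had 12.4, 13.7, 12 and 12.5 CPM in the DMSO libraries and 3.52, 3.65, 2.92 and 2.75 CPM in the DOX libraries. All DOX values lay below the DMSO values (-1.97 ± 0.15, adjusted p = 5.9e-09), although Gsta1 has close paralogs. Srxn1, which repairs peroxiredoxins, fell (-0.84 ± 0.06, adjusted p = 1.04e-08), as did Gclm, of glutathione synthesis (-0.73 ± 0.07, adjusted p = 1.13e-06), and Gsta4 (-0.83 ± 0.11, adjusted p = 6.51e-05). The common reporters of the program were not called, with Nqo1 at -0.25 ± 0.23, adjusted p = 0.752 and Hmox1 at -0.07 ± 0.07, adjusted p = 1.0. The antioxidant element TGACNNNGC was found in 4 of 10 promoter windows of the members called lower (40%) against 12.4% of all windows and 14.4% of those of tested genes, and the sterol element TCACNCCAC in 1 of 7 windows of sterol genes called lower (14.3%) against 1.24% and 1.1%.

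Structural genes of the epithelium fell. Of 35 tested genes for keratins and the cytoskeleton of microvilli 25 were lower and 2 higher, with a median of -0.52, and of 44 genes of junctions and polarity 15 were lower and 3 higher. By 3 days 19 and 14 of them had already been lower, and 1 and 2 higher. Krt20, a keratin of differentiated epithelia, had 217, 239, 214 and 214 CPM in the DMSO libraries and 93.3, 83.8, 88.1 and 88 CPM in the DOX libraries. The groups did not overlap (-1.32 ± 0.07, adjusted p = 1.04e-10). Krt4 fell (-2.88 ± 0.15, adjusted p = 9.02e-12), from 12.9 ± 1.84 to 1.75 ± 0.553 CPM. Krt5, the keratin of basal cells, fell (-2.86 ± 0.33, adjusted p = 1.19e-06) and had as few as 3 counts in a DOX library, so its fold change is poorly fixed. Avil, advillin, an actin-binding protein of the villin family, had 0.28, 0.506, 0.596 and 0.314 CPM in the DMSO libraries and 9.8, 11.7, 11.4 and 9.77 CPM in the DOX libraries. It showed the largest rise of all the lists, without overlap (4.62 ± 0.20, adjusted p = 6.83e-13), and its exons overlap those of Tsfm on the opposite strand. Myo7a, an unconventional myosin, rose (0.55 ± 0.11, adjusted p = 0.0106), a call lost with DESeq2 (adjusted p = 0.124). Cldn8, a claudin of the distal nephron and collecting duct, had 9.91, 9.66, 10.2 and 9.48 CPM in the DMSO libraries and 1.51, 2.3, 0.989 and 1.91 CPM in the DOX libraries. It fell (-2.53 ± 0.17, adjusted p = 4.06e-10), with the lowest DMSO value above all DOX values. Cldn2, the claudin of leaky epithelia, fell (-1.49 ± 0.23, adjusted p = 0.000112), as did Cdh16, the kidney-specific cadherin (-0.84 ± 0.08, adjusted p = 7.46e-07), and Pard6a, a polarity protein, rose (0.53 ± 0.08, adjusted p = 0.00166).

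Of 47 kidney and positional transcription factors 11 fell and 2 rose. Ehf, an epithelial ETS factor, had 173, 199, 206 and 222 CPM in the DMSO libraries and 78.2, 83.2, 77.1 and 85.5 CPM in the DOX libraries, without overlap (-1.31 ± 0.06, adjusted p = 9.63e-12). Irx3, a homeodomain factor, fell (-1.23 ± 0.11, adjusted p = 1.24e-07), as did Foxa1, a pioneer factor of endoderm (-1.1 ± 0.16, adjusted p = 6.86e-05). Klf15, a factor induced by glucocorticoids, had 0.84, 0.69, 0.596 and 1.15 CPM in the DMSO libraries and 4.37, 6.49, 6.5 and 4.27 CPM in the DOX libraries. It rose 6.59-fold (2.72 ± 0.23, adjusted p = 1.62e-08), and 1.05 (log2) had been its change at 3 days. Of 52 tubule transport genes 14 fell and 6 rose. Scnn1a, the alpha subunit of the epithelial sodium channel, had 8.17, 7.22, 7.64 and 7.18 CPM in the DMSO libraries and 2.81, 2.71, 2.31 and 2.99 CPM in the DOX libraries. The DOX libraries were all lower (-1.48 ± 0.12, adjusted p = 2.13e-08). Hsd11b2, the enzyme that protects the mineralocorticoid receptor from glucocorticoids, fell (-1.44 ± 0.39, adjusted p = 0.0123) with overlapping groups at under 2 CPM, and its adjusted p was 0.052 without DMSO library 2. Fxyd3, a modulator of the sodium pump, fell (-2.43 ± 0.31, adjusted p = 5.15e-06) from 1.6 ± 0.467 to 0.293 ± 0.0857 CPM, and Slc41a3, a magnesium carrier, rose (1.29 ± 0.19, adjusted p = 5.26e-05). The effect of DOX on 12 of the 52 transport genes was higher at 6 than at 3 days, and on 1 lower.

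Genes of the matrix, integrins and proteases went both ways, with 20 of 75 lower and 12 higher. Plat, tissue plasminogen activator, had 253, 264, 235 and 237 CPM in the DMSO libraries and 90.1, 79.8, 74.1 and 76.3 CPM in the DOX libraries, far apart (-1.62 ± 0.07, adjusted p = 9.3e-13). Mmp7, matrilysin, fell (-1.87 ± 0.18, adjusted p = 1.15e-07), as did Tnxb, tenascin X (-2.01 ± 0.32, adjusted p = 9.58e-05), at a low level. Ddr2, a receptor for fibrillar collagen, had 0.168, 0.276, 0.0542 and 0.314 CPM in the DMSO libraries and 4.62, 4.68, 5.42 and 3.93 CPM in the DOX libraries. It rose without overlap (4.45 ± 0.34, adjusted p = 2.46e-09) from as few as 1 count in a DMSO library, so its fold change is poorly fixed. Adamts10 rose (1.19 ± 0.19, adjusted p = 0.000176). Of 30 cytokine, chemokine and complement genes 11 fell and 7 rose. Cxcl5, a ligand that attracts neutrophils, had 7.16, 8.88, 9.1 and 10.5 CPM in the DMSO libraries and 2.61, 2.67, 2.4 and 2.55 CPM in the DOX libraries, lower in all DOX libraries (-1.8 ± 0.13, adjusted p = 1.64e-09), and Ppbp, a related chemokine, fell (-2.89 ± 0.08, adjusted p = 1.17e-15). Cntf fell (-2.05 ± 0.10, adjusted p = 8.26e-12), but its exons overlap those of Zfp91 on the same strand. C1ra, a protease of the classical complement pathway, rose (2.22 ± 0.24, adjusted p = 4.13e-07), from 0.899 ± 0.338 to 4.16 ± 0.813 CPM.

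Lysosomal and ciliary genes rose in small part and by small amounts. Of 89 genes of the lysosome and autophagy 15 were higher and 3 lower (median 0.06), and of 65 ciliary genes 10 were higher and 2 lower (median 0.19). The members higher were 12 and 6 with DESeq2, 2 and 2 with limma on log2(TPM + 1), and 8 and 4 in the 3 libraries of lowest tubule marker level. Hexa, a hexosaminidase that degrades gangliosides, had 44.6, 47.4, 44 and 39.3 CPM in the DMSO libraries and 84.8, 83.1, 86.5 and 83.1 CPM in the DOX libraries, without overlap (0.94 ± 0.06, adjusted p = 4.42e-09). Naglu (0.75 ± 0.08, adjusted p = 5.74e-06) and Idua (0.81 ± 0.09, adjusted p = 1.15e-05), which degrade heparan sulfate, rose, as did Glb1, a beta-galactosidase (0.55 ± 0.09, adjusted p = 0.00241). Gusb, the beta-glucuronidase, fell (-0.59 ± 0.08, adjusted p = 0.000409). Only 2 members of the lysosomal list had been higher at 3 days, and the effect was higher at 6 days for 21 of the 89, among them Naglu (0.66 ± 0.11, adjusted p = 0.000951). Ahi1, of the ciliary transition zone, had 8.96, 7.82, 7.47 and 9.27 CPM in the DMSO libraries and 19.7, 17.9, 21.3 and 17.5 CPM in the DOX libraries (1.19 ± 0.10, adjusted p = 2.97e-08). Tmem231, of the same zone, rose (0.75 ± 0.08, adjusted p = 1.08e-05), as did Ift122, of retrograde transport in the cilium (0.71 ± 0.07, adjusted p = 2.56e-06), and Ift80 fell (-0.65 ± 0.08, adjusted p = 6.46e-05).

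Outside all lists, the largest rises were of genes with varied roles. Sspo, which encodes SCO-spondin, a secreted matrix protein, had 0.616, 0.368, 0.433 and 0.419 CPM in the DMSO libraries and 8.19, 8.83, 9.71 and 8.3 CPM in the DOX libraries. It rose from as few as 8 counts in a DMSO library and showed no overlap (4.25 ± 0.28, adjusted p = 3.01e-10). B4galnt2, a glycosyltransferase that makes the Sda antigen, had 1.68, 1.93, 2.17 and 1.83 CPM in the DMSO libraries and 15.6, 17.6, 18.8 and 16.2 CPM in the DOX libraries. It rose 8.91-fold (3.16 ± 0.16, adjusted p = 6.49e-12). Cdsn, corneodesmosin, an adhesion protein of cornified epithelium, had 12.8, 11.9, 14.8 and 14 CPM in the DMSO libraries and 93.1, 105, 112 and 114 CPM in the DOX libraries, a rise of 7.94-fold (2.99 ± 0.10, adjusted p = 4.05e-15). Tenm4, Hhipl1, Akna, Bend6 and Fam171b followed, with log2 fold changes of 2.41, 2.32, 2.27, 2.22 and 2.01. Pdzd7, Ltbp4, Soat2, Fam198b and Sulf2 closed this group, with 1.96, 1.91, 1.82, 1.8 and 1.79. Ltbp4 holds latent TGF-beta in the matrix, Soat2 esterifies cholesterol and Sulf2 removes sulfate from heparan sulfate. For Tenm4, limma on log2(TPM + 1) gave 0.12 (adjusted p = 1.0), with 0.596 ± 0.569 TPM with DMSO and 0.67 ± 0.263 TPM with DOX. All 13 had DOX libraries above all DMSO libraries in CPM.

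The largest falls outside the lists were also of genes with varied roles. Sprr1a, a protein of the cornified envelope, had 188, 238, 196 and 188 CPM in the DMSO libraries and 32.2, 27.6, 27 and 27.5 CPM in the DOX libraries. It fell (-2.83 ± 0.10, adjusted p = 8.94e-14) with no overlap. Fer1l6, a ferlin, had the largest fall of the protein-coding genes with at least 5 CPM in either group (-3.41 ± 0.29, adjusted p = 1.89e-08), from 6.64 ± 1.14 to 0.63 ± 0.329 CPM. Cd209c, Gsdma, Psca and Tmprss11e fell as well, with log2 fold changes of -3.17, -3.12, -2.93 and -2.68. Gsdma is a gasdermin of skin and Psca a surface protein of prostate and other epithelia. Havcr1, the kidney injury molecule KIM-1, had 5.82, 4.56, 5.15 and 5.81 CPM in the DMSO libraries and 1.16, 0.739, 0.942 and 0.835 CPM in the DOX libraries, lower in all DOX libraries (-2.54 ± 0.18, adjusted p = 8.03e-10). Vcam1, an adhesion molecule of inflamed tissue, fell (-2.35 ± 0.21, adjusted p = 7.19e-08). The remaining 4, Tmem252, Nipal1, Oit1 and Ptpn22, had -2.45, -2.32, -2.29 and -2.29. Cd209c and Sprr1a belong to families of close paralogs.

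Of the 1326 genes higher at 6 days 446 were also called higher at 3 days, of the 1530 lower 709 were also called lower, and none was called the opposite way. The effect differed between times in the same direction as the change at 6 days for 473 of the higher genes and 488 of the lower. A late group, with a difference between times and an unadjusted glmTreat p over 0.05 at 3 days, held 367 of the higher and 340 of the lower genes. That p is against a fold of 1.2, so a gene of this group may already have changed by a smaller amount at 3 days. The late genes named here could lie in or outside the lists, apart from those given above and a set passed over. They were protein-coding with a mean of at least 5 CPM in the higher group. The largest rises among them were Etnk2, Kif21b, Cyp1b1, Ifi203 and B4galnt4. Cyp1b1, an oxidase induced through the aryl hydrocarbon receptor, had 10.6, 8.56, 7.04 and 11.5 CPM in the DMSO libraries and 19.7, 22.6, 26.8 and 22.1 CPM in the DOX libraries (1.28 ± 0.14, adjusted p = 2.75e-06), against -0.06 at 3 days. Etnk2, an ethanolamine kinase, rose (1.29 ± 0.12, adjusted p = 2.52e-07), as did Kif21b, a kinesin (1.28 ± 0.12, adjusted p = 2e-07), B4galnt4 (1.22 ± 0.15, adjusted p = 1.13e-05), and Ifi203, an interferon-inducible gene with close paralogs (1.23 ± 0.11, adjusted p = 6.49e-08).

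S100a6, a calcium-binding protein abundant in epithelia, led the late falls in CPM, with 1384, 1379.9, 1239.6 and 1307 CPM in the DMSO libraries and 672, 562, 594 and 576 CPM in the DOX libraries. The groups were apart (-1.14 ± 0.09, adjusted p = 4.71e-08), and its change had been -0.28 at 3 days. Tmsb4x, which sequesters actin monomers, fell (-1.2 ± 0.15, adjusted p = 4.43e-05), as did Il24, a cytokine (-1.07 ± 0.08, adjusted p = 1.67e-08), Mettl7b (-1.07 ± 0.12, adjusted p = 5.43e-06) and 2200002D01Rik (-1.1 ± 0.10, adjusted p = 4.08e-07). The number of genes that differ between times, 2252, depended on single libraries, with 1369 without DMSO library 4 of 3 days, 1467 without DMSO library 2 of 6 days, 1480 without DOX library 2 of 3 days and 3787 without DOX library 1 of 3 days. When a fold of 1.2 was required of the difference itself, 183 genes passed.

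**Figure D4:**
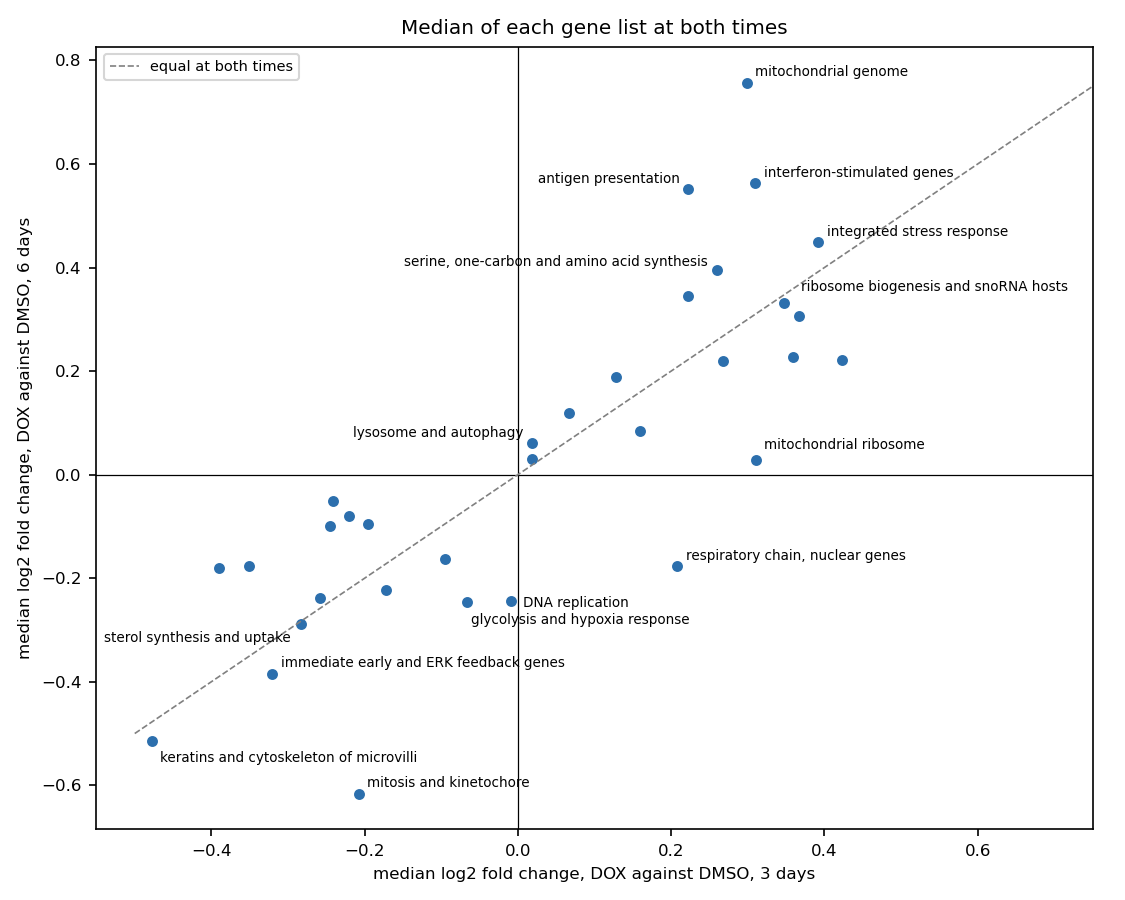
Median log2 fold change (DOX against DMSO) of the tested members of each of the 33 functional lists, at 3 days on the horizontal axis and at 6 days on the vertical axis, 1 point per list, with a dashed line where both are equal and a name beside 15 of them. The mitochondrial genome (0.30 and 0.76) and antigen presentation (0.22 and 0.55) lie above the line, and the nuclear respiratory chain genes (0.21 and -0.18) and mitosis (-0.21 and -0.62) below it.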

How the data were processed

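Poly(A) RNA of mIMCD3 cells was sequenced by the authors in 16 libraries, and they quantified genes with salmon on GRCm38.p6. The deposited tables hold their estimated counts for each gene and library, which are not normalized, and their TPM values, which are scaled for length. The strand setting of the counting is not given in the sources used here. Estimated counts were rounded, scaled by TMM and fitted with edgeR 4.0.16 in R 4.3.3 (robust glmQLFit, 1 mean for each of 4 groups, 16 libraries), because the common fit steadies the estimate of the spread. Genes needed at least 1 CPM in at least 4 libraries. DOX was compared with DMSO by two-sided glmTreat at a fold of 1.2 and the difference between times by glmQLFTest, with Benjamini-Hochberg adjustment over all genes and a limit of 0.05. The SE was taken from the fitted change and its quasi-likelihood F (change over root F). DESeq2 1.42.0 and limma 3.58.1 on log2(TPM + 1) served as alternatives. The edgeR fit was tested on simulated counts, and intervals from floors cover counting error only.

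Positions and overlaps come from GENCODE M21 (GRCm38), and promoters from RefSeq. Members and gene lists were chosen with earlier results of these data known. Named genes are the 3 called members of each list with the largest change in its main direction and the largest in the other, or the 2 of highest TPM where none was called. Outside the lists, the 12 largest rises and falls were taken. These genes needed a mean of at least 5 CPM in the higher group (so 1 group alone could pass a gene). With the same limit, the 5 largest late rises and falls not yet named were taken, in or outside the lists. A set of genes, among them those named in the text of the study and several of the strongest changes, was passed over by the rule, and 37 genes were added after their values were seen. These are the passed-over Avil, Ddr2 and Sspo, the other mitochondrial messages, the genes with shown promoters (Trib3, Pycr1, Yars, Gbp3, Rsad2, Erap1), B2m, Ncapd2, Gclm, Atf4, Ddit3, Ern1, Id1, Id2, Id3, Tap1, Cdkn1a, Glb1, Foxm1, Tnfrsf10b, Nqo1, Hmox1, Srebf2 and Pgk1. A few genes of the rule are not reported here. Of the 150 genes named by rule, 24 share exon bases with another gene that has at least 5% as many counts at 6 days. Examples are Guf1 with Gnpda2, Fxyd3 with Lgi4 and Pex16 with Large2. Reads of such pairs may not be fully separated.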

Additional observations from a re-analysis of the deposited data

Results flagged for a closer look

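The difference between the DOX effects at 6 and 3 days was also tested with edgeR's glmTreat at a fold of 1.2. Adjusted p over all genes tested was under 0.05 for 41 of the named genes, and for 183 genes in all. For all 41 the effect also differed with length and GC content corrected for. The named genes were picked from these data, some of them for a difference between times or after their values were seen. Their number and directions are therefore a description and not a test. The values that follow are log2 effects at 6 days less those at 3 days. The largest was Sspo at 2.17. The interferon and antigen presentation genes among the 41 all moved upward, with Mx1 at 1.75, Nlrc5 at 1.25, Iigp1 at 1.2, Zbp1 at 1.06, Ifi203 at 0.90, H2-Q7 at 0.84, Tap1 at 0.83 and Gbp3 at 0.76. The regulators Klf15 (1.67) and Ern1 (0.64), the death receptor Fas (1.39), the enzymes Acox2 (1.37), Cyp1b1 (1.33), Sulf2 (1.13), Etnk2 (1.06), Car12 (0.69) and Naglu (0.66), the transporter Slc1a5 (0.66), and mt-Nd4l (0.79), Tenm4 (1.56) and Kif21b (0.99) also moved upward.

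The 4 inhibitors of DNA binding moved downward, with Id4 at -1.43, Id2 at -1.07, Id3 at -1.06 and Id1 at -1.05. The further downward differences were Sprr1a -1.49, Gsdma -1.32, Krt4 -1.18, Psca -1.04, S100a6 -0.86, Txnip -1.76, Fer1l6 -1.72, Cd209c -1.66, Ppbp -1.54, Mettl7b -0.98, 2200002D01Rik -0.97, Tmem252 -0.96, Ankrd37 -0.79, Il24 -0.74 and Rrm2 -0.73.

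In 23 of 374 groups of 4 libraries, 1 library stood apart from the other 3 by Dixon's criterion, while chance flags about 1 in 20 groups. DMSO library 1 stood apart 7 times, above the other DMSO libraries for Bmp2 (43.1 CPM against 24.3 to 27.2), Ncapd2 (178 against 142 to 148), Jun (52.2 against 42.0 to 43.2), Myo7a (7.72 against 5.60 to 5.75) and Mx1 (1.06 against 0.867 to 0.89), and below them for Gclm (138 against 159 to 162) and Idi1 (31.4 against 43.6 to 45). It was also the DMSO library of lowest mitochondrial share and lowest tubule marker level. The part of either in these values was not tested.

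The other DMSO libraries that stood apart were library 2 for Sprr1a (238 CPM), Krt20 (239 CPM) and Mrps31 (23.8 CPM), library 3 for Gpt2 (75.6 CPM) and Car12 (17.8 CPM), and library 4 for Lrpprc (57.7 CPM) and Erap1 (38.1 CPM). Among the DOX libraries these were library 1 for B2m (900.1 CPM) and Sprr1a (32.2 CPM), library 2 for Pex16 (23.1 CPM) and Hsd11b2 (0.698 CPM), library 3 for Bend6 (8.998 CPM), and library 4 for Car12 (38.2 CPM), Glb1 (17.6 CPM), Cdkn2d (9.47 CPM) and Notch4 (0.638 CPM).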

How the results depend on the processing

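The count of genes called at 6 days, 2856 (1326 higher and 1530 lower), stayed within 1.5 times with RLE normalization, with either filter, with the 8 libraries of 6 days alone and with length and GC content corrected for. It was 6702 (3396 higher, 3306 lower) without a fold threshold, 1527 (448 higher) with limma on log2(TPM + 0.1) and 1307 (376 higher, 931 lower) on log2(TPM + 1), and DESeq2 called 866 genes higher. Leaving out 1 library gave 2545 to 3064 genes in all, 1149 to 1444 higher and 1376 to 1620 lower. The difference between times was called for 2252 genes, for 183 with a fold threshold of 1.2, for 631 and 659 with limma at the pseudocounts of 0.1 and 1, and for 1369 to 3787 without 1 library. Of 2 alternatives chosen after seeing the data, the tubule marker level as a covariate gave 2816 calls at 6 days and 3067 differences between times, and the 3 libraries of lowest marker level gave 1443 calls (700 higher, 743 lower) from fewer samples. The cause of the other shifts was not tested.

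The replicate block gave 1284 genes higher, 1483 lower and 1768 that differed between times, and moved no count of the 4 by more than 1.5 times. Equally numbered libraries of the 2 treatments did not deviate together (correlation of deviations from -0.288 to 0.178 over the 4 numbers), so the numbers were not taken to pair the samples.

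Of 187 named genes, calls were lost for 35 with limma on log2(TPM + 1), 28 on log2(TPM + 0.1), 12 with DESeq2, 27 in the libraries of lowest marker level, 5 without a filter, 2 with the 8 libraries of 6 days alone, and 1 to 5 without 1 library. Apart from genes for which the report gives it, the calls lost with limma on log2(TPM + 1) were those of Mrps31, Oxa1l, Guf1, Lrpprc, Immp2l, Slc43a2, Tarsl2, Abcg1, Mlxipl, Fads3, Pex6, Ppargc1a, Cdkn1c, Sesn2, Pard6a, Myo7a, Tnxb, Adamts10, Hsd11b2, Tmem231, Ift80, Idua, Bmp6, Kif21b, Yars, Erap1, B2m, Ern1, Cdkn1a, Glb1 and Tnfrsf10b. In the libraries of lowest marker level those of Rpl12, Rpl4, Fasn, Pex16, Mx1, Gusb, Ddit3, Pgk1 and Mrpl49 were lost too, as were 17 of the genes just listed, and DESeq2 lost those of Mrps21, Mrpl18 and Sdf2l1 as well.

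A change of sign under some alternative was seen for 5 named genes, and none of these was called. For Mdh2 the log2 fold change was -0.0704 in the libraries of lowest marker level. For Idh3b it was 0.0047 with the length and GC correction, 0.0072 with that and the block, 0.0059 without a filter, and -0.0717 to 0.0354 without 1 library. For mt-Nd6 it was -0.0027 and -0.0032 with limma at the pseudocounts of 0.1 and 1, -0.13 with the covariate, and -0.15 to 0.15 without 1 library. For mt-Co1 it was 0.15 with the length and GC correction, with or without the block, 0.17 in the libraries of lowest marker level, 0.0187 without a filter, and -0.0757 to 0.0366 without 1 library. For mt-Co2 it was -0.19 to 0.27 without 1 library.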

Other observations

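Gene classes that no list covered also differed in direction, and these classes were chosen after their values were seen. Of 284 tested long intergenic noncoding RNAs 63 were lower with DOX at 6 days (22.2%) and 18 higher (6.34%), against 11.6% and 10.0% of all genes. Of 257 processed pseudogenes 16 were lower (6.23%) and 1 higher (0.389%), both below the shares of all genes. Reads of such genes cannot always be told from those of their parent genes.

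Among gene families grouped by symbol with at least 15 tested members, the zinc finger proteins named Zfp had 29 of 331 members higher (8.76%) and 7 lower (2.11%), both below the shares of all genes, with a median log2 fold change of 0.08. Solute carriers had 36 of 213 higher (16.9%) and 22 lower (10.3%), and cytochromes P450 7 of 19 higher (36.8%) and 2 lower (10.5%). Kinesins had 14 of 34 lower (41.2%) and 4 higher, myosins 7 of 17 lower (41.2%) and 1 higher, and tetraspanins 6 of 15 lower (40%) and none higher. The kinesins include mitotic members that are also in the mitosis list.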
